A study of Homo sapiens with 6 samples.

Results

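The metallothioneins and the genes that serve the cellular response to zinc were examined in cultured human podocytes, the epithelial cells of the kidney filter. They were found by gene symbol, and all 8 were present among the 20745 genes of the table: the metallothioneins MT1E, MT1F, MT1G, MT1M, MT1X and MT2A, the transcription factor MTF1 and the zinc exporter SLC30A1. The cells were the AB 8/13 line, which is conditionally immortalized: it divides at 33 °C and differentiates at 37 °C, where it was kept for 7 to 10 days. There were 3 vehicle cultures and 3 cultures that received 1 µM levamisole, an anthelminthic drug also used to spare steroids in nephrotic syndrome, all for 24 h. The treatment label places the vehicle cultures in medium without serum during these 24 h, and that of the levamisole cultures names only the drug, its dose and the time. The study's methods name complete medium for the vehicle cultures, and the titles of the levamisole libraries also carry the word control. Each replicate came from a different passage of the 1 line, so the replicates do not stand for different people.

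The sequencing followed a modified form of CEL-seq, which primes cDNA at the poly(A) tail and so places reads near the 3′ ends of transcripts. The level used throughout is the base mean, a signal that the authors obtained by dividing the read counts per gene by a size factor for each library and averaging over the libraries of their fit. It pools vehicle and levamisole, the fit may have held more libraries than these 6 cultures, and no value per culture was used here. It therefore gives a pooled level of a gene without an error, with unknown depth per library, and it does not show whether levamisole changed that level. The other numeric columns hold the authors' own comparison of the groups and were not used. The median base mean over all genes was 21.8, and 35.7% of genes had a base mean under 5. The 22 mitochondrially encoded genes took 34.8% of the summed base means.

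Metallothioneins are very small proteins rich in cysteine, whose sulfur atoms bind zinc, copper and cadmium. Free zinc activates MTF1, which binds metal response elements in the promoters of the metallothionein genes and of SLC30A1. The metallothioneins then hold zinc inside the cell, and SLC30A1, also known as ZnT1, carries it out across the plasma membrane. MT2A is also a classic target of the glucocorticoid receptor.

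The coding sequences show how alike the metallothioneins are, which bears on how their reads can be told apart. Coding sequences of MT1E, MT1F, MT1M, MT1X and MT2A had 61 codons without the stop, and that of MT1G had 62. All 6 had 20 cysteine codons (TGC or TGT), which were 32.8% of the codons, or 32.3% in MT1G. Below are the most abundant member, the next one and the least abundant pair, 5′ to 3′ with the cysteine codons in capitals, spliced from the GRCh38 gene models of MT2A (chr16:56608584-56609497, plus strand), MT1F (chr16:56657731-56660698, plus strand), MT1X (chr16:56682470-56684196, plus strand) and MT1G (chr16:56666730-56668065, minus strand).
MT2A: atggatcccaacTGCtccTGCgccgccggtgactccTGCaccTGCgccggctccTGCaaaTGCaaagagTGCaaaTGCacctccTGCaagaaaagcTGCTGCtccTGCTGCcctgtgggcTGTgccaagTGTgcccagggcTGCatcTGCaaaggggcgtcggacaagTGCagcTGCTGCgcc
MT1F: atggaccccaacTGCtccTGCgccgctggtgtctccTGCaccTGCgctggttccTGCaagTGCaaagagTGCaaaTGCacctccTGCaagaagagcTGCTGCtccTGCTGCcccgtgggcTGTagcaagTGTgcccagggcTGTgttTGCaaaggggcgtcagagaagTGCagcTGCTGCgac
MT1X: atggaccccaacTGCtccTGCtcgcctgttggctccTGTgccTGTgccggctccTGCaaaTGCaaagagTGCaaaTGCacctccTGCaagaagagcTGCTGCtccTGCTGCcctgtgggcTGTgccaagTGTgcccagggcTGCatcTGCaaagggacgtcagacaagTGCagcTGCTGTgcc
MT1G: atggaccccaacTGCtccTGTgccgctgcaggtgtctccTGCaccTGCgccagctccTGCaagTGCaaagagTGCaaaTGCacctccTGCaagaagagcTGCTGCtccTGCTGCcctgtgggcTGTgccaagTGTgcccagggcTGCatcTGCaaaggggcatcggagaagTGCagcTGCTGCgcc
All 20 cysteine codons stood at the same places in MT2A and the 4 other sequences of 61 codons, while 18 of the 20 came 1 codon later in MT1G, which has 1 additional codon near its start. Over the 15 pairs of the 6 coding sequences, identity of the aligned bases ran from 88.5% (MT1F with MT1X, 21 of 183 positions different) to 93.5% (MT1G with MT2A, 12 of 186 different), with a median of 91.3%.

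MT2A was by far the most abundant member. Its base mean was 5289, which placed it at rank 85 of the 20745 genes, above 99.6% of them. MT2A alone held 82.5% of the summed base means of the 6 metallothioneins, and its base mean was 4.73 times the sum of the 5 MT1 genes. Per kilobase, its level was 13191 by the main transcript model (the canonical one, a length chosen after seeing the data), 5858 by the longest transcript and 5787 by the union of annotated exons, and on each it was the highest member.

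MT1F and MT1E followed. MT1F (ENSG00000198417) had a base mean of 565, at rank 1473 and above 92.9% of all genes. MT1E (ENSG00000169715, chr16:56625475-56627112, plus strand) had a base mean of 504, at rank 1650 and above 92.0%. Both exceeded the 90th percentile of the table, which was a base mean of 401. As base means, MT1F exceeded MT1E by 1.12 times, a difference that cannot be judged without an error. The order depended on the length used: per kilobase, MT1F was 1.86 times MT1E by the main transcript models (1330 against 716) and 0.637 times MT1E by the union of all annotated exons.

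The other MT1 members had lower base means. MT1M (ENSG00000205364, chr16:56632659-56633981, plus strand) had a base mean of 33.3, over the median of the table and above 54.9% of all genes. MT1X (ENSG00000187193) had a base mean of 14.6, below the median of the table and above 45.9% of genes. MT1G (ENSG00000125144) was the lowest member, with a base mean of 2.15, above 27.2% of genes, and it was the only one of the 8 under a base mean of 5. From MT2A to MT1G, the 6 metallothioneins spanned a factor of 2458 in base mean. Per kilobase of the main transcript model, MT1M, MT1X and MT1G stood at 83.5, 36.1 and 5.25, and per kilobase of the union of exons at 65.1, 8.46 and 2.87. On these scales MT1M was above 84.7% and 87.7% of all genes, and MT1X above 73.4% and 56.7%.

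The regulator and the exporter lay between these groups by base mean. SLC30A1 (ENSG00000170385, chr1:211571568-211579161, minus strand) had a base mean of 168, above 78.8% of genes. MTF1 (ENSG00000188786, chr1:37809574-37859592, minus strand) had a base mean of 103, above 71.2% of genes. Both have long transcripts, of 5893 bases for SLC30A1 and 7937 for MTF1. Those of the metallothioneins have 398 to 704 bases by the main transcript models and 398 to 1727 by the longest transcript. Per kilobase, SLC30A1 stood at 28.4 and MTF1 at 13.0, so that SLC30A1 was 2.19 times MTF1. On this scale MT1M, which was below both by base mean, was 2.94 times SLC30A1 and 6.43 times MTF1. Because CEL-seq reads come from the 3′ end whatever the length of a transcript, the per-kilobase scale favours short genes, and both scales are given for this reason.

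**Figure D1:**
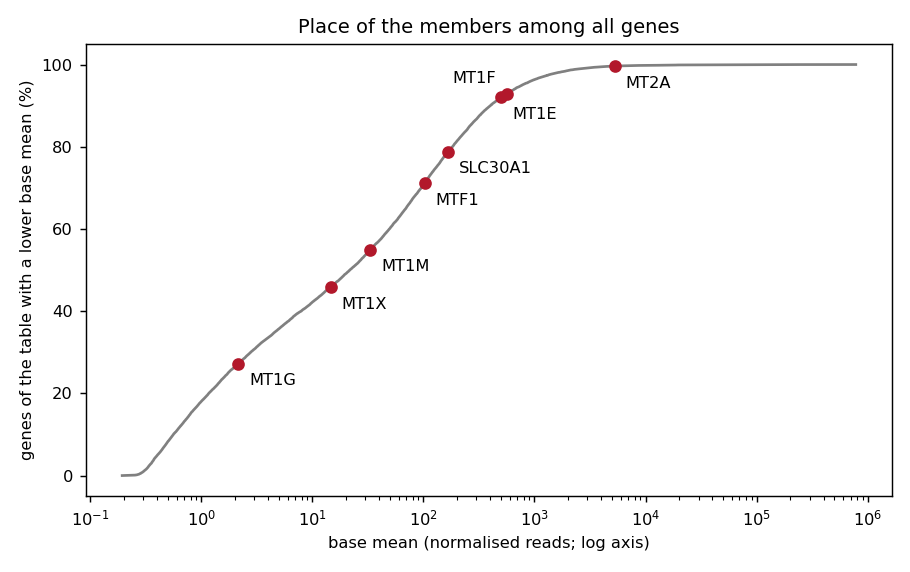
The grey curve gives, for each base mean on the log x axis (normalised reads), the percentage of the 20745 genes with a lower one, and red points are the 8 members. MT2A sits at 99.6%, MT1F and MT1E close together at 92.9% and 92.0%, and MT1G at 27.2%.

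In all, the 8 genes held 0.105% of the summed base means, or 0.161% once the mitochondrially encoded genes were left out. Of the 8 members, 6 were above the median base mean of the table, and MT1X and MT1G were below it.

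The 6 metallothionein members lie within 75.6 kb on chromosome 16, where MT1G alone among them is read from the minus strand. MT2A, the highest member, is at one end of this stretch, and MT1G and MT1X, the lowest, start farthest from it, 59.5 and 73.9 kb from the start of MT2A. MT1E and MT1F, whose base means were close, start 16.9 and 49.1 kb away, and MT1M, with a lower base mean than both, starts between them at 24.1 kb. Of the other genes of the cluster, the highest was MT1L, a transcribed pseudogene 8.98 kb from the MT2A start, with a base mean of 153.

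**Figure D2:**
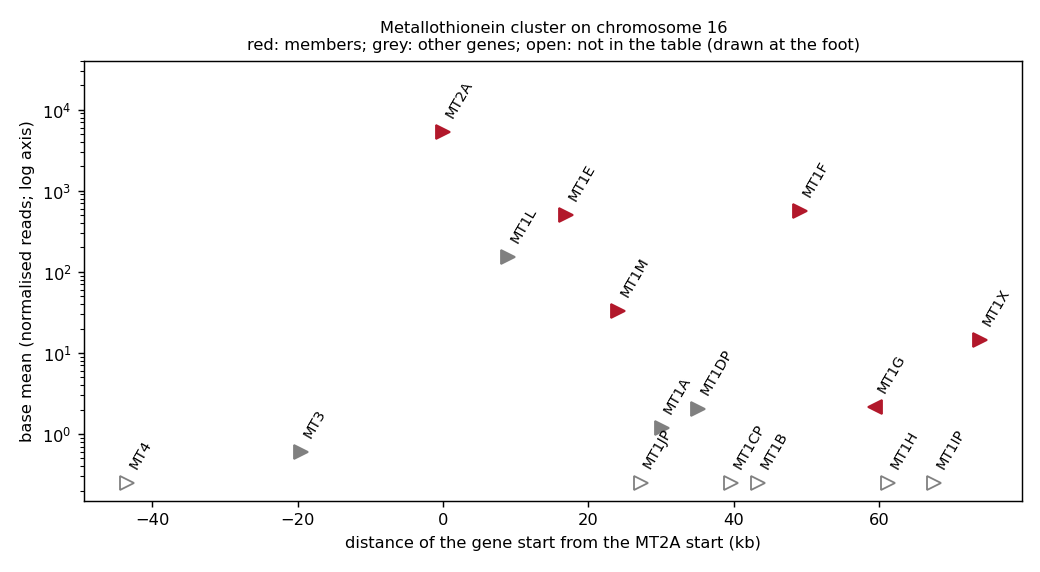
Each arrowhead is a metallothionein gene pointing in its direction of transcription, placed by the distance of its start from that of MT2A (x axis, kb) and by base mean (log y axis, normalised reads), with members in red and other genes in grey. Open symbols at the foot are genes not in the table used here and have no value. MT2A at 5289 and MT1G at 2.15 mark the extremes among the members.

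Since metallothionein genes resemble each other, it was asked how much of each transcript near its 3′ end can be placed uniquely. Read 2 had 60 cycles in the study's methods. HTSeq-count with its default settings leaves out reads that fit several places equally well and reads that touch exons of 2 genes on the same strand. Every window of 60 bases in the last 500 exonic bases was therefore searched for in GRCh38 and in the transcripts of other genes. SLC30A1 and MTF1 had 0 of 441 windows with a second place. All 6 metallothioneins had some, but most of their 60-base windows were unique. The share with a second exact place was 3.55% for MT1F (13 of 366), 4.39% for MT2A (15 of 342), 4.54% for MT1E (20 of 441) and 9.14% for MT1M (31 of 339). It was higher for the lowest pair, at 13.9% for MT1X (48 of 345) and 14.5% for MT1G (51 of 351), and 37 of these windows were shared between MT1X and MT1G themselves. MT1X differed from the other members in a further way: 107 of its 345 windows (31.0%) also belong to transcripts of ENSG00000259827, a long non-coding RNA gene on the same strand that shares its first exons, so that 44.9% of its windows were not unique in one way or the other. Of the 404 exonic bases of MT1X, 40.8% are covered by that gene, and for the other 7 members no base of the last 500 lies in an exon of a further gene on that strand. Within the last 300 bases, the share was 21.2% both for MT1X and for MT1G. Windows only partly inside exons of ENSG00000259827 were not counted, although reads placed there can also be left out. All shares given for MT1X are therefore minimums, and its likeness to MT1G within the last 300 bases holds only for this count. Among the 6 metallothionein members, the 3 with the lowest base means thus had the largest shares of windows without a unique place. Of the 11 listed metallothioneins outside the members, only the 4 with a base mean were searched, and the other 7 were not. MT1A, MT1DP and MT3, all with lower base means than MT1G, had such windows in 1.78%, 0% and 0% of cases. MT1L, with a base mean of 153, had them in 4.72%. The short model of MT1DP gave only 91 windows. The shares also depended on the window: with 40 bases they were 22.1% for MT2A, 9.07% for MT1F, 13.4% for MT1E, 29.2% for MT1M, 26.7% for MT1G and 57.8% for MT1X, and 0 for SLC30A1 and MTF1. The part of repeated windows in the levels was not tested.

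**Figure D3:**
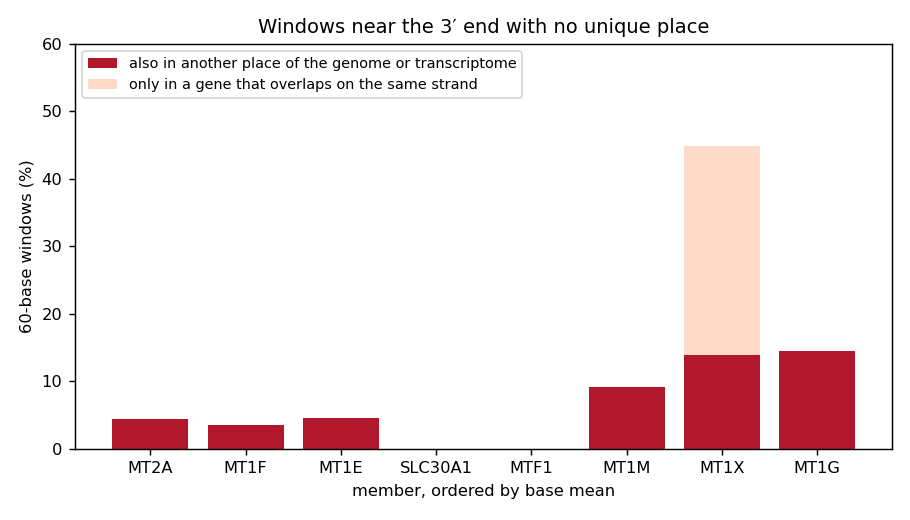
Bars give, for each member in the order of base mean, the percentage of 60-base windows in the last 500 exonic bases that also occur in another place of the genome or transcriptome (red) or only in an overlapping gene on the same strand (pale). MT1X reaches 44.9% and MT1G 14.5%, MT2A, MT1F and MT1E stay between 3.55% and 4.54%, and MTF1 and SLC30A1 are at 0. Windows only partly inside the overlapping gene are not counted, so the bar of MT1X is a minimum.

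The promoters of the zinc response genes were searched for the core of the metal response element, which was spelled as TGCACNC or TGCGCNC and sought on both strands from 250 bases before the gene start to 50 after it. RefSeq promoter sequences (GRCh38.p14) were matched for 4 of the 8 members, MT1X, MT2A, MTF1 and SLC30A1, and MT1E, MT1F, MT1G and MT1M had no entry. Shown are the 250 bases before the start, 5′ to 3′ on the strand of the gene, with each core in capitals, since they let the number and spacing of the cores be compared: MT2A (chr16:56608334-56608583, plus strand), MT1X (chr16:56682220-56682469, plus strand) and SLC30A1 (chr1:211579162-211579411, minus strand).
MT2A: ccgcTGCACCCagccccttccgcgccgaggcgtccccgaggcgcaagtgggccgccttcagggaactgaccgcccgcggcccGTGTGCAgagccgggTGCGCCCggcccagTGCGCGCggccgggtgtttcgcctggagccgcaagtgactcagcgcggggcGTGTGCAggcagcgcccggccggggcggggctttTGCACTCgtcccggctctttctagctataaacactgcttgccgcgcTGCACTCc
MT1X: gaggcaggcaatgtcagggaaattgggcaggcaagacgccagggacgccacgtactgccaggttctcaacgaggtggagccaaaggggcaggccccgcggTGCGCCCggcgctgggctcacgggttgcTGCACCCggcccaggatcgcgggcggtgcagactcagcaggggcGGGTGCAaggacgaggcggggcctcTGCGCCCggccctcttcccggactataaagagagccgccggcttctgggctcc
SLC30A1: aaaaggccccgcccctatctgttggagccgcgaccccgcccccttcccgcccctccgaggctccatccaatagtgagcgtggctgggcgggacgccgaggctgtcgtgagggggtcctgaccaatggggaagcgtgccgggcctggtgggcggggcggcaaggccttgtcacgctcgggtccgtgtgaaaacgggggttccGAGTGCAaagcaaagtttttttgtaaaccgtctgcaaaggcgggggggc
MT2A held 8 cores, 7 of them before the start and 1 after it, 6 of the form TGCACNC and 2 of the form TGCGCNC. Its cores were spread along the whole stretch before the start. MT1X held 4 cores, all before the start, of which 2 were TGCACNC. SLC30A1 held 2 cores, 1 on each side of the start, both TGCACNC on the opposite strand. MTF1 held 0 cores in this window, which says nothing of how MTF1 acts. No core overlapped another in these promoters. Of the 35116 RefSeq promoters of the same length, 29.6% held at least 1 core, 8.60% at least 2, 2.30% at least 3, 0.601% at least 4 and 0.162% at least 5, so a single core is common in promoters of this length and 4 or more are not. These promoters were not matched for base content. G and C made up 72.0% of the bases in MT2A, 69.7% in MTF1, 68.0% in SLC30A1 and 67.0% in MT1X, against a median of 58.7%. Of the metallothioneins outside the members, MT1H held 8 cores, as many as MT2A, and MT1B and MT4 held 3 each, and these 3 genes were not in the table used here. By base mean, MT1X with 4 cores (14.6) was below SLC30A1 with 2 (168) and MTF1 with 0 (103). Per kilobase of the main transcript model, MT1X at 36.1 was above SLC30A1 at 28.4 and MTF1 at 13.0, but by the union of exons it was 0.655 times MTF1. The level of MT1X also carries the limit given above, that at least 44.9% of its 60-base windows were not unique. Whether the number of cores bears on these levels was not tested.

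**Figure D4:**
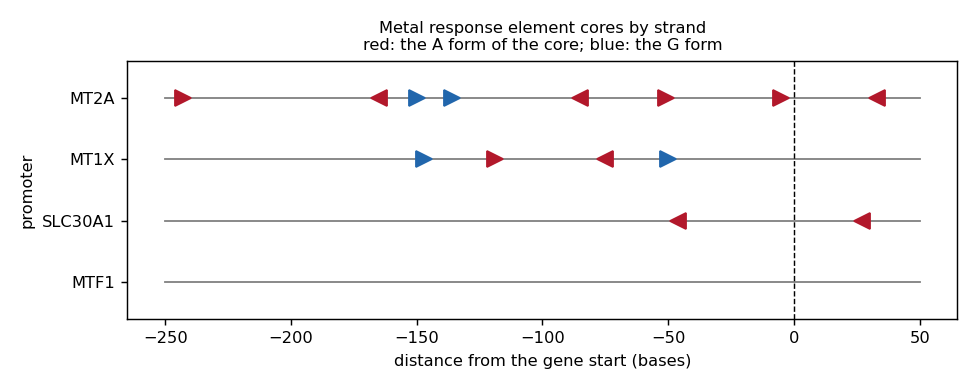
Each line is a promoter from 250 bases before to 50 bases after the gene start (x axis, bases; dashed line at the start), and arrowheads mark cores and their strand, in red for TGCACNC and in blue for TGCGCNC. MT2A carries 8 cores, MT1X 4, SLC30A1 2 and MTF1 none.

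Among the other metallothionein genes and pseudogenes, 4 of 11 listed were in the table used here, and 1 of them, MT1L, had a base mean of at least 5. The gene model of MT1L is only 186 bases long in the annotation used here, so a level per kilobase was not compared. MT1DP, another pseudogene, had a base mean of 2.03, MT1A one of 1.17, and MT3, the form known from brain, one of 0.607. MT1B, MT1H, MT1HL1, MT1IP, MT1JP, MT1CP and MT4 were not in the table used here.

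Zinc transporters of both families were detected. For scale, 35.7% of all genes in the table had a base mean under 5, a share that leaves out genes absent from it. Besides SLC30A1, 6 of 9 listed SLC30 genes, a family that mainly moves zinc out of the cytosol, were in the table, and 5 of them had a base mean of at least 5. SLC30A7, which loads zinc into the secretory pathway, was the highest at 643, followed by SLC30A9 at 241 and SLC30A5 at 117. SLC30A1 thus lay between SLC30A9 and SLC30A5 by base mean, whereas per kilobase, at 28.4, it lay just under SLC30A5 at 29.2. SLC30A2, SLC30A8 and SLC30A10 were not in the table used here. Of the 14 listed SLC39 genes, which bring zinc into the cytosol, 10 were in the table, all with a base mean of at least 5, in a range from 31.1 for SLC39A11 to 499.7 for SLC39A10. SLC39A14 had a base mean of 335 and SLC39A4 one of 251. SLC39A1, SLC39A2, SLC39A5 and SLC39A12 were not in the table used here. Of the last 500 exonic bases of SLC39A1, 91.8% lie in exons of ENSG00000285779, a gene on its strand. For SLC39A2, SLC39A5 and SLC39A12 this share was 0%. Whether such overlap bears on the absence of a gene was not tested.

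**Figure D5:**
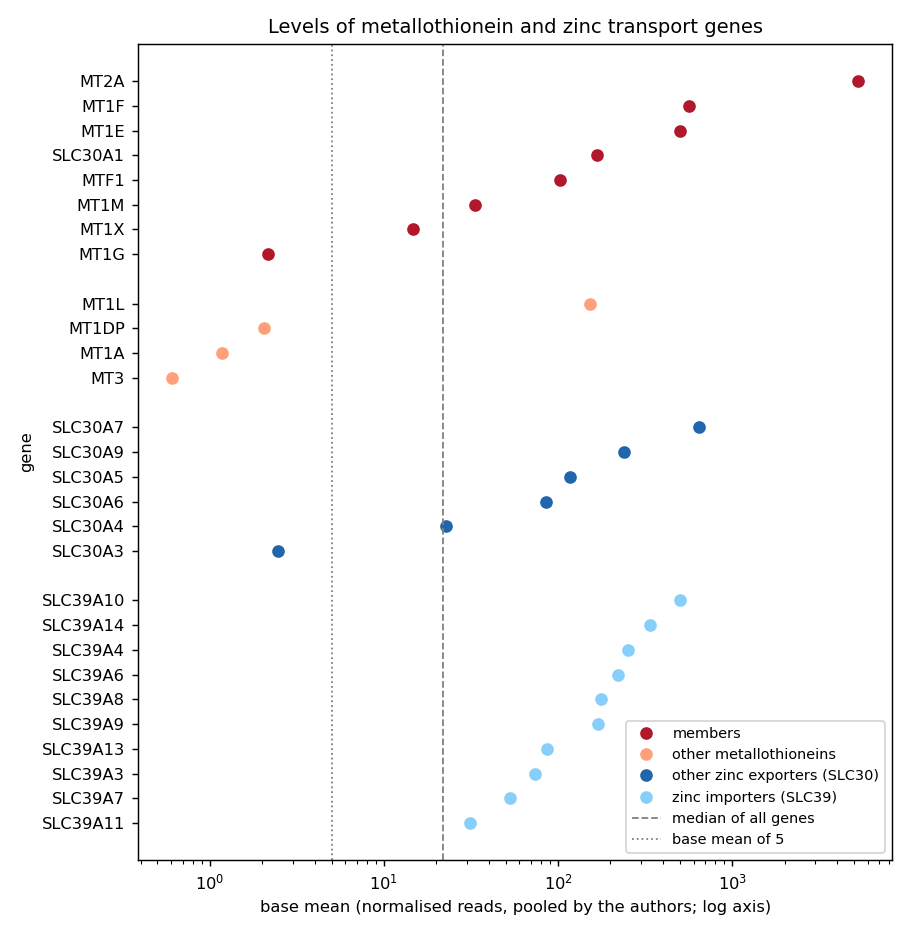
Points give the base mean (log x axis, normalised reads pooled by the authors over both groups) of the 8 members, the other metallothioneins and the SLC30 and SLC39 zinc transporters in the table, each group ordered from high to low. The dashed line is the median of all genes (21.8) and the dotted line a base mean of 5. Metallothioneins spread from 0.607 to 5289, while SLC39 importers lie between 31.1 and 499.7.

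The podocyte identity of the cells was checked on marker genes. Of 11 podocyte markers, 10 were in the table and 8 had a base mean of at least 5, led by ACTN4 at 14320 and CD2AP at 929, both of which other cells also express. The slit diaphragm gene NPHS1 was not in the table used here, WT1 was at 6.21 and PTPRO at 0.333, so several genes that define mature podocytes were low. Endothelial, immune and proximal tubule markers in no case reached a base mean of 5: of 10 listed, 6 were in the table. For 1 of them, CD68, 82.6% of the last 500 exonic bases lie in exons of ENSG00000264772 on its strand, where reads can be left uncounted. Among mesangial and fibroblast markers, DES was not in the table used here and PDGFRB was at 4.14, while COL1A1 was at 2732. These values pool both groups, and their part in the levels of the metallothioneins was not tested.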

How the data were processed

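Bulk RNA sequencing of 3 vehicle and 3 levamisole cultures was used. According to the methods and the submitters' processing notes, the authors trimmed reads with Trim Galore 0.4.5 (cutadapt 1.18, FastQC 0.11.8), mapped them to GRCh38 (Ensembl 95) with STAR 2.7.5a, counted them with HTSeq 0.11.0 and compared groups with DESeq2 1.22.0 in R 3.5.3. The only column used was the base mean, a signal in normalised reads that the authors deposited as a mean over the libraries of their fit. The log2 fold changes, standard errors, statistics and p-values hold the authors' own comparison and were not used. There being no values per culture, no test between groups could be run, and depth per library is unknown.

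Ranks, percentiles and sums were computed over all genes with Python 3.11.15, NumPy 2.4.6 and pandas 2.3.3, and figures were drawn with matplotlib 3.10.9. Positions and transcripts came from GENCODE 44 on GRCh38, the authors' assembly with a later annotation, to which 20599 of 20745 identifiers matched. The main transcript model was the canonical one, or for MT1E the 3-exon model of 61 codons. Genes with identifiers newer than any in the table were not counted as overlapping or as second places, nor were unplaced and alternative contigs searched. Coding sequences were aligned globally with Biopython 1.88 (match 1, mismatch -1, gap opening -3, gap extension -1). The window and motif searches were tested on simulated data. The members and gene lists were chosen with earlier results of these data known. Named genes were all members. Of the zinc lists, the highest genes, those absent and some others were named. From the marker lists only some genes were named, among them high, low and absent ones. One item of the marker list is not reported here. Alternatives were other length measures, base mean minimums, windows and motif settings.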

Additional observations from a re-analysis of the deposited data

How the results depend on the processing

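No paired analysis was possible because the column used pools all libraries. For the same reason no replicate could be left out, and no other normalization or test was run. The median percentile of the 8 members was 75.0 over all genes, 82.3 per kilobase of the union of exons, 79.3 per kilobase of the longest transcript, 79.1 per kilobase of the canonical transcript (chosen after seeing the data) and 67.0 when genes under a base mean of 5 were left out. Their share of the summed base means was 0.161% without mitochondrially encoded genes instead of 0.105%, because the sum is smaller. The count of members with repeated windows was 6 with the last 300 bases and with windows of 40 bases as well, although the share of such windows was higher with 40 bases in all 6, and it fell to 2, MT1G and MT1X, when at least 10% of windows had to be repeated. Members with a metal response element core numbered 3 of the 4 searched under all 3 settings. Of the 34 listed genes other than members, 16 had a base mean of at least 5, 16 one of at least 10 and 19 one of at least 1. Without values per library, the precision of every level is unknown.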
